A study of Mus musculus with 12 samples.

Results

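The 8 genes described here encode receptors for noradrenaline and adrenaline, and they were taken from the deposited table of raw counts by symbol: Adra1a, Adra1b, Adra1d, Adra2a, Adra2b, Adra2c, Adrb1 and Adrb3, out of 25284 genes listed. RNA was sequenced from the aorta of 12 male ApoE-/- mice of a C57BL/6 background. ApoE-/- mice lack apolipoprotein E, a ligand by which the liver takes up lipoproteins, and both groups carried this deletion and ate the same high fat diet enriched in cholesterol. The 6 treated mice (A1 to A6) received AZ6983, an agonist of the nicotinic receptor encoded by Chrna7, at 50 µmol per kg per day through osmotic minipumps under the skin for 8 weeks, from 10 to 18 weeks of age, and the 6 control mice (C1 to C6) received the vehicle over the same time. Each library is 1 mouse.

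Adrenergic receptors sit in the cell membrane and signal through G proteins. The α1 receptors couple to Gq, which releases calcium and makes smooth muscle contract, the α2 receptors couple to Gi, which lowers cAMP and on sympathetic nerve endings holds back the release of noradrenaline, and the β receptors couple to Gs, which raises cAMP. In the vessel wall the α1 receptors are known for vasoconstriction, and in fat cells the β3 receptor is known for switching on lipolysis and, in brown fat, heat production.

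The aorta is surrounded by fat and nerve, and marker genes of both were counted in the samples. Those of sympathetic neurons varied widely between mice, as given below. The smooth muscle genes Acta2, at 5806 ± 866 CPM (counts scaled to a common library size) in control mice and 5653 ± 1164 CPM in AZ6983 mice (SD, n = 6 in each group), and Myh11, at 6143 ± 602 and 6064 ± 851 CPM, were among the most abundant markers, so the labelled tissue carried its defining genes. The brown fat gene Ucp1, which encodes the uncoupling protein, stood at 2627 ± 438 and 1869 ± 930 CPM, and Adipoq, a hormone gene of fat cells, at 327 ± 72.3 and 408 ± 80.1 CPM. A score was therefore made for each of 11 cell types as the mean log2 CPM of its marker genes in a mouse. None of the 11 scores passed an exact two-sided permutation test over mice between the groups, with adjusted p-values of 0.71 or more (smallest possible p 0.00216). The brown fat score was 6.90 ± 0.274 in control and 6.63 ± 0.520 in AZ6983 mice (exact permutation p = 0.268), the white fat score 7.83 ± 0.249 and 7.93 ± 0.229 (exact permutation p = 0.483) and the smooth muscle score 9.62 ± 0.152 and 9.56 ± 0.193 (exact permutation p = 0.587). Without A5, the mouse with the highest brown fat score, the brown fat difference was −0.472 (exact permutation p = 0.0216, not adjusted). The libraries held 23810036 to 35864666 counts on genes. Reads outside any gene were 8.02% to 12.7% of the reads in control mice and 11.2% to 14.9% in AZ6983 mice, and the part of this gap in the results was tested only by the fit with that share as a covariate, given in the closing section. Mouse A4 stood apart by thymocyte genes, with a thymocyte and T cell score of 6.75 against at most 2.26 in any other mouse. Apoe still had 117 to 311 counts per mouse, and whether these reads lie in the deleted part of the gene cannot be read from counts per gene. Chrna7, the receptor of the agonist, had 19 to 114 counts and a log2 fold change of −0.62 (SE 0.417, edgeR adjusted p = 0.591).

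No receptor gene passed the test between AZ6983 and control mice. All 8 passed the filter on low counts. At 10% FDR edgeR's quasi-likelihood test called 0 of the 8, beside 0 of all 15857 genes tested (0%). At an unadjusted p under 0.05 it found 0 of the 8, beside 1616 genes (10.2% of those tested, 7.38% higher and 2.81% lower in AZ6983 mice). In none of the 8 did the groups stand clear of each other in CPM, beside 65 of the 15857 genes tested (0.410%). DESeq2 called 92 genes over the whole table, 65 higher and 27 lower, and limma-voom 0, and neither called a receptor gene. Of the 8 fold changes 2 were above 0 and 6 below, with a median of −0.14 on the log2 scale beside 0.01 over all genes tested. In a sample of whole tissue, fewer cells of a type and less RNA per cell cannot be told apart.

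**Figure D1:**
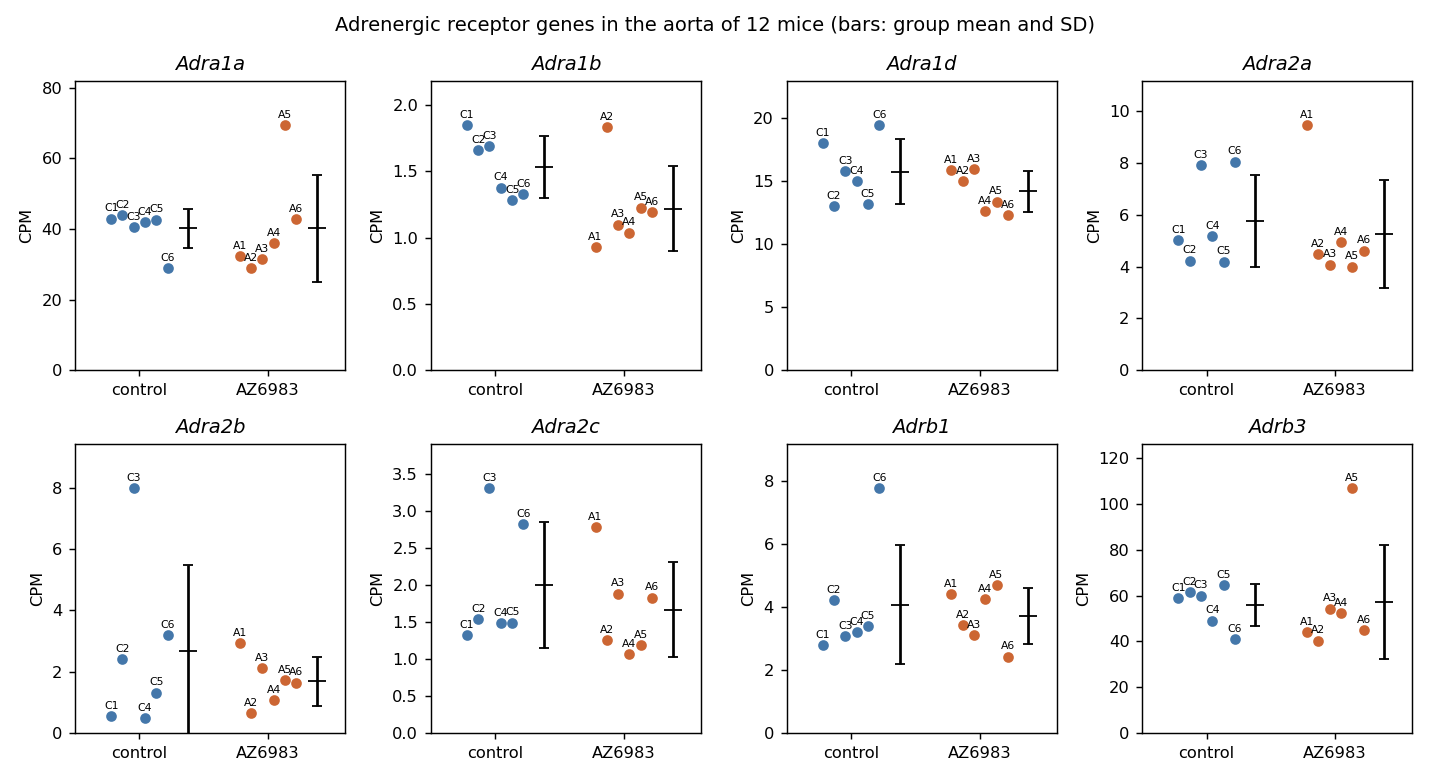
Level of each receptor gene in CPM (vertical axis, from 0) in the 6 control mice (blue) and the 6 AZ6983 mice (orange), 1 point per mouse with its name, and the group mean and SD as bars; the lower end of the control bar of Adra2b lies below 0 and is not drawn. The groups overlap in all 8 panels, A5 is the highest mouse for Adra1a and Adrb3 at 69.4 and 107 CPM, and C3 is the highest for Adra2b and Adra2c at 8.00 and 3.31 CPM.

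The order of the receptors was read per length, since longer transcripts gather more reads. Per kilobase of annotated exon, Adrb3 was highest at 16.7 ± 5.32 CPM per kb (SD over 12 mice) and lay above Adra1d in all 12 mice with no overlap of the ranges. Adra1d followed at 7.87 ± 1.17 and Adra1a at 4.60 ± 1.24 CPM per kb, and these neighbours overlapped, with Adra1d above Adra1a in 11 of 12 mice. Both lay clear of Adrb1 at 1.15 ± 0.418 CPM per kb. Adrb1 and Adra2a, the latter at 1.14 ± 0.386 CPM per kb, were not separated, nor were Adra2b at 0.542 ± 0.509, Adra2c at 0.532 ± 0.214 and Adra1b at 0.407 ± 0.0923 CPM per kb. The length used decides 1 place in this order: the exons of Adra1a add up to 8728 bases over 6 annotated transcripts, the longest of which has 4282, and with the longest transcript as the length Adra1a came to 9.38 CPM per kb, above Adra1d at 7.87.

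**Figure D2:**
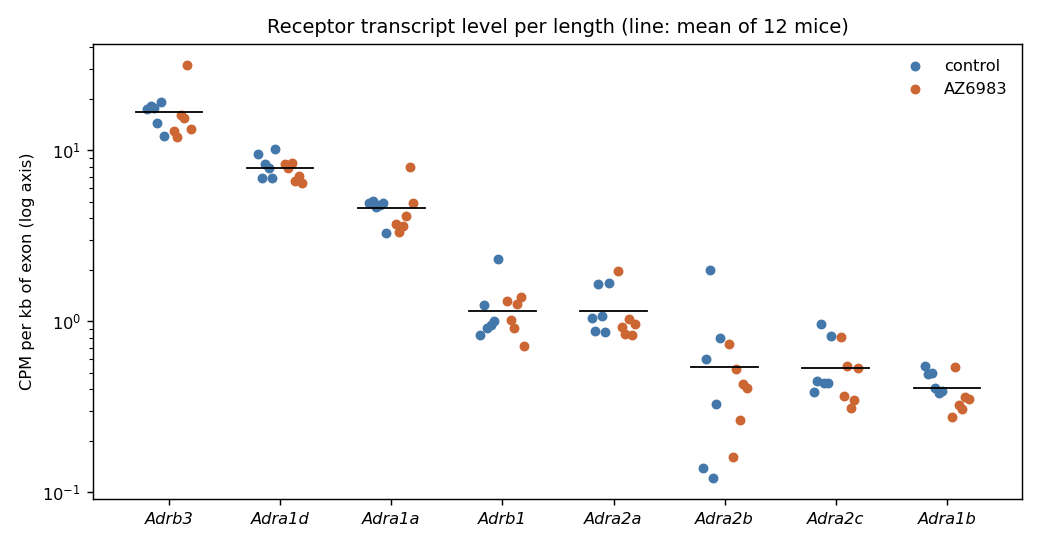
Level per length of each receptor gene in CPM per kb of annotated exon (vertical log axis) in 6 control (blue) and 6 AZ6983 mice (orange), with a line at the mean of the 12 mice, ordered from the highest to the lowest mean. Adrb3 at 16.7, Adra1d at 7.87 and Adra1a at 4.60 CPM per kb stand above the other 5, which lie at 1.15 or less.

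Adrb3, the β3 receptor of fat cells, lies on chromosome 8 (GRCm38, chr8:27225776-27250616, minus strand). It measured 59.0, 61.7, 60.03, 49.1, 64.7 and 41.0 CPM in C1 to C6. In A1 to A6 it measured 44.0, 40.3, 54.4, 52.2, 107 and 44.8 CPM. Mouse A5 was the highest of all 12, and the other 5 AZ6983 mice lay within or just below the control range. The group means were 55.9 ± 9.0 and 57.1 ± 25.0 CPM (SD, n = 6), and the log2 fold change was 0.03 (SE 0.220, edgeR adjusted p = 0.971, 95% interval −0.44 to 0.51). Leaving out A5 turned it to −0.27 (SE 0.121, unadjusted p under 0.05, edgeR adjusted p = 0.385), in a fit where 12.8% of all genes had an unadjusted p under 0.05. On the opposite strand an antisense gene, Gm45470, spans 839 bases of Adrb3 exons and is not a row of the table. Whether the counting used the strand was not given in the sources used here, so reads of the antisense gene cannot be told apart from reads of Adrb3.

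Adra1a, the α1A receptor, spans 14:66635251-66771168 on the plus strand. The control mice lay at 42.9, 43.9, 40.6, 42.0, 42.6 and 28.8 CPM. The AZ6983 mice lay at 32.4, 28.9, 31.5, 36.1, 69.4 and 42.8 CPM. Of the controls 5 lay within a narrow band and C6 below it, while 4 of the AZ6983 mice were under 40 CPM and A5 was the highest of all. The means were 40.1 ± 5.64 and 40.2 ± 15.1 CPM, and the log2 fold change was 0.00045 (SE 0.196, edgeR adjusted p = 0.9999, 95% interval −0.42 to 0.42). Without A5 it was −0.25 (SE 0.125, edgeR adjusted p = 0.425).

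Adra1a and Adrb3 moved together from mouse to mouse (Pearson's r = 0.877 over 12 mice, permutation p = 0.00107, adjusted p = 0.026 over 28 pairs of receptors; Spearman's rho = 0.748, permutation p = 0.00705, adjusted p = 0.0987), and r was 0.619 without the 2 mice farthest from the median of Adra1a. Both followed the brown fat score. For Adra1a, r was 0.923 (permutation p = 0.00011, adjusted p = 0.00484 over 88 relations of 8 receptors to 11 scores), with 0.912 within the control mice and 0.967 within the AZ6983 mice. Its Spearman's rho was 0.741 (permutation p = 0.00802, adjusted p = 0.176). Among the controls C6 stood apart in both: Adra1a was 4.85 log2 CPM against 5.34 to 5.46, and the score 6.37 against 6.87 to 7.12. In the other controls the highest Adra1a, 43.9 CPM in C2, came with their lowest score, 6.87. The value within control mice therefore leans on C6, and r without that mouse was not computed. For Adrb3, r was 0.851 (permutation p = 0.00066, adjusted p = 0.0145), with 0.777 within control and 0.915 within AZ6983 mice, and rho was 0.790 (permutation p = 0.00342, adjusted p = 0.112). These within-group values lean on C6, lowest of the controls in both (41.0 CPM, score 6.37), and on A5, highest of the AZ6983 mice (107 CPM, score 7.62). Among the others, C4 had the lowest control Adrb3, 49.1 CPM, at a score of 7.06, and A6 had 44.8 CPM at 6.74. Within-group r of Adrb3 without C6 or A5 was not computed. Leaving out A2 and A5, the mice farthest from the median score, gave r = 0.833 for Adra1a and 0.658 for Adrb3. Both were positive (permutation p = 0.00522 and 0.0440, not adjusted) but not past a 5% threshold after adjustment, which is the threshold used for these relations. The calls were thus not kept without these 2 mice, in a test that fewer mice also weaken. A relation this strong was not common in the table: 1.55% of genes had an r with the brown fat score as high as that of Adra1a, and 3.90% as high as that of Adrb3.

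The relations of Adra1a and Adrb3 to the smooth muscle and macrophage scores had the opposite sign. With the smooth muscle score r was −0.777 for Adra1a (permutation p = 0.0048, adjusted p = 0.0528) and −0.808 for Adrb3 (permutation p = 0.00365, adjusted p = 0.0459), of which the latter alone passed. Without C2 and A5 these were −0.411 and −0.446 (permutation p = 0.230 and 0.189, not adjusted), so their size depends on those mice. Spearman's rho was −0.552 (permutation p = 0.0654, adjusted p = 0.303) and −0.650 (permutation p = 0.0254, adjusted p = 0.224). Adra1a also went against the macrophage score (r = −0.785, permutation p = 0.00271, adjusted p = 0.0397; rho = −0.615, permutation p = 0.0359, adjusted p = 0.273). Without A2 and A5 that r was −0.494 (permutation p = 0.150, not adjusted), so its size too depends on the mice left out. With the white fat score r was 0.687 for Adra1a and 0.663 for Adrb3, and neither passed the threshold (adjusted permutation p = 0.102 and 0.105). Without C2 and A5 these were 0.324 and 0.186 (permutation p = 0.379 and 0.624, not adjusted), so their size too depends on those mice. The scores come from the same libraries and are not independent of each other: A5 had the highest brown and white fat scores and the lowest smooth muscle score of the 12 mice.

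With the brown fat score in the edgeR fit, the log2 fold change of Adra1a was 0.18 (SE 0.069, adjusted p = 0.259). That of Adrb3 was 0.20 (SE 0.107, adjusted p = 0.369). Of the receptors, Adra1a alone had an unadjusted p under 0.05 in that fit, beside 16.2% of all genes. The fold changes of Adra1a and Adrb3 were both positive there and negative without A5, and neither gene passed the FDR threshold in either fit. The genes most like Adra1a over the 12 mice by Pearson's r of log2 CPM were Cox8a and Ndufs6, subunits of the respiratory chain, and Poldip2, each at r = 0.984. Those most like Adrb3 were Dbi, an acyl-CoA binding protein, at r = 0.954, Echdc3 at 0.953 and Optn at 0.949.

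**Figure D3:**
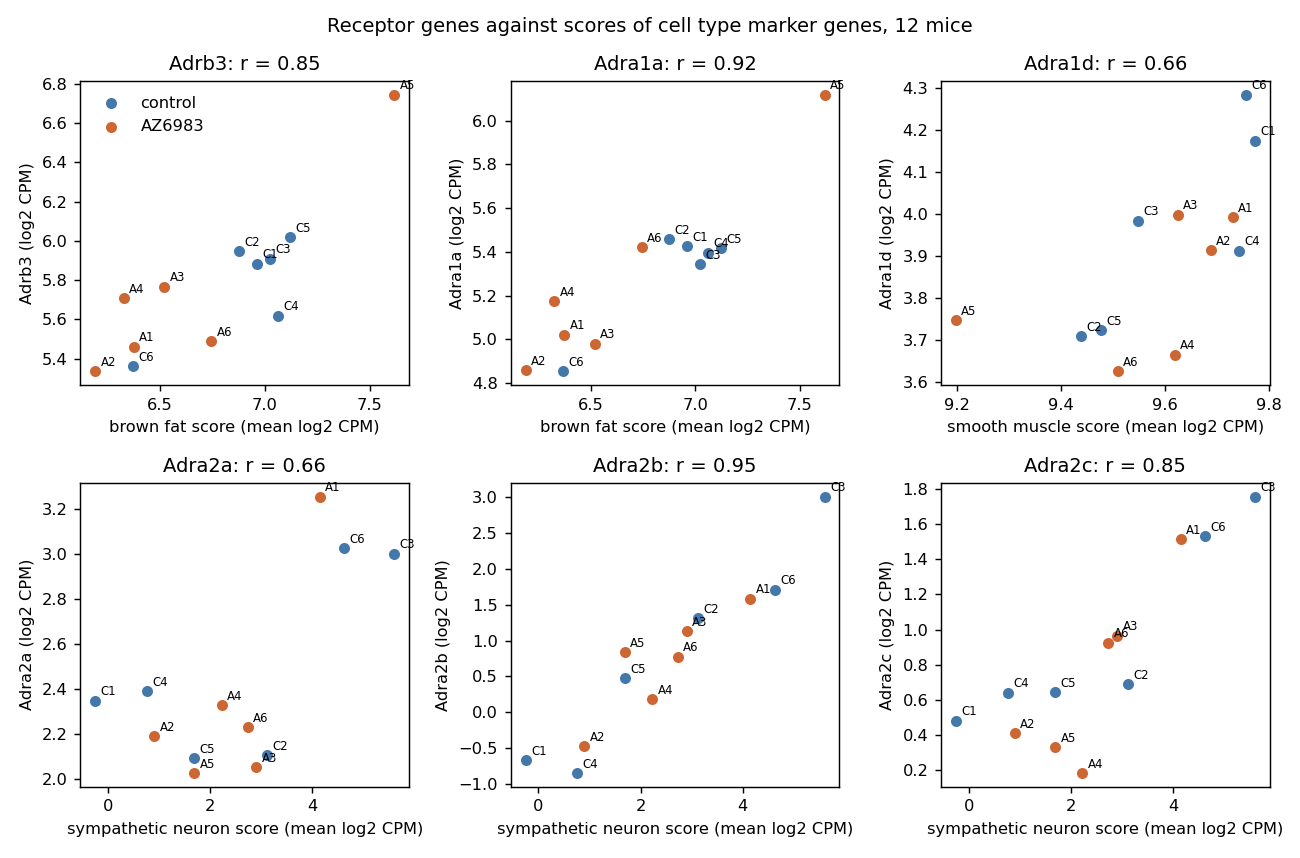
Log2 CPM of 6 receptor genes (vertical axes) against the score of a cell type, the mean log2 CPM of its marker genes (horizontal axes), for 6 control (blue) and 6 AZ6983 mice (orange), with the mouse named beside each point. Adrb3 and Adra1a rise with the brown fat score (r = 0.85 and 0.92) with A5 at the far right, Adra1d lies along the smooth muscle score (r = 0.66), and Adra2b and Adra2c follow the sympathetic neuron score (r = 0.95 and 0.85), while Adra2a is high in only C3, C6 and A1.

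Adra1d, the α1D receptor of large arteries, lies at 2:131545850-131562283 on the minus strand. It had the smallest spread between mice of the 8 genes, with a highest value 1.58 times the lowest. Control mice lay between 13.0 and 19.4 CPM (median 15.4) and AZ6983 mice between 12.3 and 15.9 CPM (median 14.2). The groups overlapped, with 2 AZ6983 mice below the lowest control, and the log2 fold change was −0.15 (SE 0.113, edgeR adjusted p = 0.626, 95% interval −0.40 to 0.09). Adra1d went the other way from Adrb3 against the wall and fat scores: r was 0.663 with the smooth muscle score (permutation p = 0.0179, adjusted p = 0.105; rho = 0.720, permutation p = 0.011, adjusted p = 0.193) and −0.664 with the white fat score (permutation p = 0.0194, adjusted p = 0.105; rho = −0.685, permutation p = 0.0173, adjusted p = 0.199). Without C2 and A5 these were 0.730 and −0.715. None of them passed the threshold. Its closest genes were Nacc2 (r = 0.900), Slc25a29 (0.896) and Faap20 (0.894). An antisense gene, Gm14285, spans 670 of the 1899 bases of its exons, so its counts, and its place in the order by length, carry the same limit as those of Adrb3.

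Adra1b, the α1B receptor, lies at 11:43774606-43901210 on the minus strand and was the scarcest per length, with 25 to 53 counts per mouse. Control mice lay between 1.28 and 1.85 CPM (median 1.52). AZ6983 mice lay between 0.928 and 1.83 CPM (median 1.15). Of the 6 AZ6983 mice 5 lay below the lowest control and A2 within the control range. The log2 fold change was −0.33 (SE 0.185, edgeR adjusted p = 0.541, 95% interval −0.73 to 0.07), the smallest adjusted p of the 8. With the no-gene share of reads as covariate it was −0.57 (SE 0.261, unadjusted p under 0.05, edgeR adjusted p = 0.9998), in a fit where 2.95% of all genes had an unadjusted p under 0.05. Without A2 it was −0.50 (SE 0.162, unadjusted p under 0.05, edgeR adjusted p = 0.548), in a fit where 8.70% of all genes had an unadjusted p under 0.05. Adra1b followed no score past the threshold: its strongest relation was to the cardiac muscle score (r = 0.606, permutation p = 0.0396, adjusted p = 0.185; rho = 0.580, permutation p = 0.0533, adjusted p = 0.273), which was 0.395 without C2 and A2. The genes most like it included Mlec (r = 0.844) and B3gntl1 (0.825).

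In the α2 receptors the same few mice were high whatever their treatment, though not every pair of these genes was related past the threshold. Of the 8 receptor genes 5 had a promoter entry in the RefSeq table (GRCm38.p6; 250 bases before to 50 after the start of a gene), these 3 among them. The sequences of Adra2a, Adra2b and Adra2c are shown because these genes were high in the same mice. Capitals mark a GC box, GGGCGG, or an E-box, CACGTG, searched for on both strands. The stretch of Adra2b is the 250 bases before its start, chr2:127362929-127363178, plus strand. Those of Adra2c, chr5:35278404-35278429, and Adra2a, chr19:54045169-54045194, both plus strand, are the E-box with 10 bases on each side.
Adra2b: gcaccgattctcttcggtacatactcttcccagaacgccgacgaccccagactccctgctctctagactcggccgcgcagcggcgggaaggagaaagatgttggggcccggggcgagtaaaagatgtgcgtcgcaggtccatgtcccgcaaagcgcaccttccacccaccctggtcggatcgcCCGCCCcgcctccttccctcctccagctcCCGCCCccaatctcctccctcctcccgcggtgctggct
Adra2c: actcaggccaCACGTGacagaacctc
Adra2a: gtcgacttccCACGTGggggctgacg

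In the 300-base windows Adra2b held 2 GC boxes and 0 E-boxes, Adra2c 0 and 1, and Adra2a 1 and 1. A GC box was found in 35.7% and an E-box in 7.15% of all 32851 promoters, taken from 27025 genes. The full cAMP response element, TGACGTCA, was found in none of the 3 windows and in 1.79% of all promoters. Its part TGACG, which the full element contains, was found once in Adra2a and in 20.8% of all. GC made up 68.0% of the Adra2b window, 51.3% of the Adra2c window and 68.7% of the Adra2a window, beside a median of 52.7%. The windows of Adra2a and Adra2c lie for 300 and 297 bases within an exon of the gene in the GENCODE annotation, which starts these genes farther upstream than the RefSeq table does.

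Adra2b, the α2B receptor (2:127363208-127367221, plus strand), varied most, with 13 to 232 counts per mouse and a highest value 16.5 times the lowest. Control mice measured 0.558, 2.41, 8.00, 0.484, 1.32 and 3.20 CPM. AZ6983 mice measured 2.93, 0.647, 2.12, 1.06, 1.72 and 1.64 CPM. The highest were C3, C6 and A1, and the lowest were C4, C1 and A2, so both ends of the range held control mice and the AZ6983 mice lay inside it. The means were 2.66 ± 2.82 and 1.69 ± 0.801 CPM, with a log2 fold change of −0.66 (SE 0.613, edgeR adjusted p = 0.695, 95% interval −1.99 to 0.66), and limma-voom gave −0.19 (SE 0.629, adjusted p = 0.939). Its direction turned on 1 control mouse: without C3 it was 0.07 (SE 0.504, edgeR adjusted p = 0.982), and without C3, C6 and A1 it was 0.26 (SE 0.498, edgeR adjusted p = 0.864).

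Adra2c, the α2C receptor (5:35278319-35281763, plus strand), had 29 to 96 counts per mouse. Control mice lay between 1.32 and 3.31 CPM (median 1.52) and AZ6983 mice between 1.06 and 2.78 CPM (median 1.54). Here too C3, C6 and A1 were the highest, at 3.31, 2.82 and 2.78 CPM, and 3 AZ6983 mice lay below the lowest control. The log2 fold change was −0.26 (SE 0.303, edgeR adjusted p = 0.762, 95% interval −0.92 to 0.39), and −0.03 without those 3 mice (SE 0.216, edgeR adjusted p = 0.965).

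Adra2a, the α2A receptor (19:54044151-54048982, plus strand), lay between 4.19 and 8.06 CPM in control mice (median 5.10) and between 4.004 and 9.47 CPM in AZ6983 mice (median 4.56). The 3 highest were again A1 at 9.47, C6 at 8.06 and C3 at 7.93 CPM, while the other 9 mice lay between 4.004 and 5.17 CPM. The log2 fold change was −0.13 (SE 0.248, edgeR adjusted p = 0.866, 95% interval −0.67 to 0.40), and −0.08 without the 3 mice (SE 0.128, edgeR adjusted p = 0.828).

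The 3 mice high in α2 receptors were the 3 with the highest score of sympathetic neuron markers, 5.60 in C3, 4.63 in C6 and 4.15 in A1, against −0.25 to 3.12 in the other 9. Sympathetic neurons release noradrenaline, and their cell bodies lie in ganglia. Dbh, which encodes the enzyme that makes noradrenaline from dopamine and was not used in the score, measured 191 CPM in C3, 103 in C6 and 65.7 in A1, and 0.174 to 26.2 CPM in the other mice. Th, the first enzyme of the pathway, measured 131, 62.8 and 50.1 CPM in these 3 mice, and 0.174 to 15.9 in the others. Of the 8 sympathetic neuron markers 7 passed the filter and entered the score. The score was 2.59 ± 2.27 in control and 2.43 ± 1.11 in AZ6983 mice (exact permutation p = 0.874). Whether ganglion or nerve was dissected with some aortas was not tested.

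Over all 12 mice Adra2b followed the sympathetic neuron score most closely of the 88 relations (r = 0.951, permutation p = 1e-05, the smallest the draws can give, adjusted p = 0.00088; rho = 0.958, permutation p = 2e-05, adjusted p = 0.00176). It held without C1 and C3, the mice farthest from the median score (r = 0.915), and within control (0.969) and AZ6983 mice (0.878), and 1.16% of genes had an r as high. For Adra2c r was 0.848 (permutation p = 0.00053, adjusted p = 0.0145; rho = 0.783, permutation p = 0.00383, adjusted p = 0.112), with 0.920 within control and 0.861 within AZ6983 mice and 0.817 without C1 and C3. That last value did not pass the threshold after adjustment. For Adra2a r was 0.663 (permutation p = 0.0189, adjusted p = 0.105) and rho was 0.336 (permutation p = 0.287, adjusted p = 0.681), with C3, C6 and A1 standing apart from the other 9 mice. Adra2b also followed the score of Schwann cell and nerve markers (r = 0.787, permutation p = 0.00241, adjusted p = 0.0397; rho = 0.692, permutation p = 0.0157, adjusted p = 0.199). That r was 0.990 within control but 0.413 within AZ6983 mice, and 0.615 without C1 and C4 (permutation p = 0.0558, not adjusted). With the sympathetic neuron score in the edgeR fit, the log2 fold change of Adra2b was −0.05 (SE 0.230, adjusted p = 0.950), that of Adra2c −0.19 (SE 0.178, adjusted p = 0.700) and that of Adra2a −0.11 (SE 0.190, adjusted p = 0.857).

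Among the receptors themselves, Adra2b and Adra2c had r = 0.794 (permutation p = 0.00186, adjusted p = 0.026; rho = 0.776, permutation p = 0.00442, adjusted p = 0.0987; r = 0.748 without the 2 mice farthest from the median of Adra2b), and Adra2a and Adra2c had r = 0.811 (permutation p = 0.00376, adjusted p = 0.0351) but rho = 0.469 (permutation p = 0.127, adjusted p = 0.641). Adra2a and Adra2b did not pass the threshold (r = 0.537, permutation p = 0.0746, adjusted p = 0.418; rho = 0.224, permutation p = 0.485, adjusted p = 0.798). The genes most like Adra2b were Ptn, a growth factor gene, at r = 0.9752, Kcna6, a potassium channel gene, at 0.973 and Aldoc, a glycolytic enzyme gene, at 0.972. Those most like Adra2c were Wdr17 (r = 0.986), Dmxl2 (0.977) and Scamp1 (0.968), of which Wdr17 was scarce, at a mean of −0.95 log2 CPM. Those most like Adra2a included Arl2bp (0.939) and Scrn1 (0.934).

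Adrb1, the β1 receptor known from the heart, lies at 19:56722199-56733113 on the plus strand and had 65 to 229 counts. Control mice lay between 2.79 and 7.79 CPM (median 3.30) and AZ6983 mice between 2.42 and 4.70 CPM (median 3.84). C6 was the highest by far, and the other 11 mice lay between 2.42 and 4.70 CPM. The log2 fold change was −0.13 (SE 0.260, edgeR adjusted p = 0.871, 95% interval −0.70 to 0.43), −0.07 by limma-voom (SE 0.247, adjusted p = 0.946), and 0.16 without C6 (SE 0.186, edgeR adjusted p = 0.751). Adrb1 followed no score past the threshold. The strongest was the endothelium score (r = −0.612, permutation p = 0.0408, adjusted p = 0.185; rho = −0.357, permutation p = 0.256, adjusted p = 0.681), which was −0.962 within control and 0.0489 within AZ6983 mice. It was −0.450 without C6 and A5, the mice farthest from the median score, and −0.793 without A5 alone. The most similar genes included Sucnr1 (r = 0.841) and Sema4a (0.840).

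The receptors were separated into fat-linked and wall-linked by whether r with the white or brown fat score exceeded r with the smooth muscle score. Adrb3 and Adra1a lay on the fat side by a wide margin. Adra1d, Adra2a and Adra2c lay on the wall side, with r of 0.663, 0.494 and 0.268 with the smooth muscle score. None of these passed the 5% threshold (adjusted permutation p = 0.105, 0.370 and 0.678). The place of Adra2c was nominal too, with r at 0.0594 without A5 and −0.0084 without C2 and A5. Adra1b, Adra2b and Adrb1 lay on the fat side only nominally, since their r with all 3 scores lay between −0.260 and 0.182. By Pearson's r the strongest relation of Adra2a, Adra2b and Adra2c was to neither kind of score but to that of sympathetic neurons. By Spearman's rho that of Adra2a was to the smooth muscle score (0.671, permutation p = 0.0204, adjusted p = 0.199), beside 0.336 with the sympathetic neuron score.

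**Figure D4:**
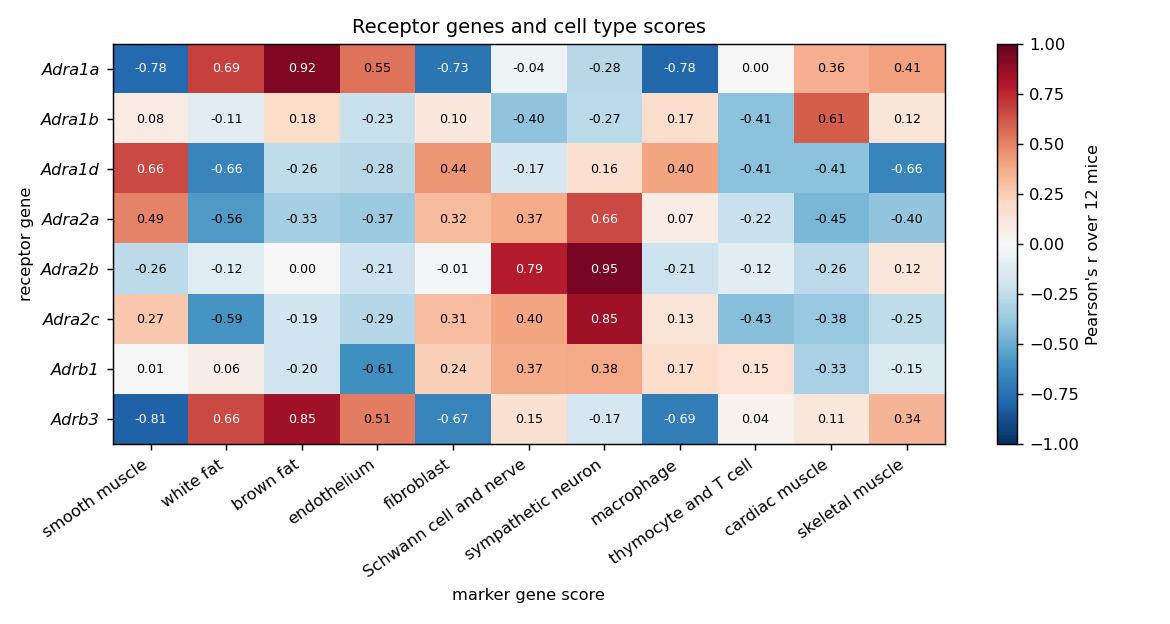
Pearson's r over 12 mice between each receptor gene (rows) and the score of each of 11 cell types (columns), with the color scale running from −1 (blue) to 1 (red). The strongest values are those of Adra2b with the sympathetic neuron score (0.95) and of Adra1a with the brown fat score (0.92), and Adra1a and Adrb3 are the 2 genes that are red for both kinds of fat and blue for smooth muscle.

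**Figure D5:**
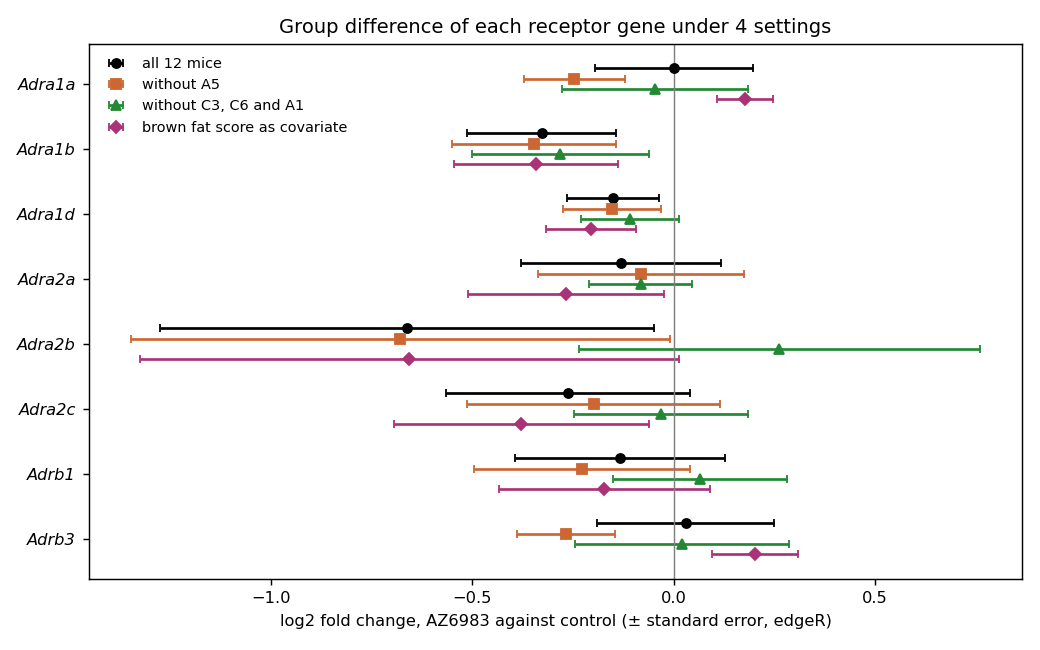
Log2 fold change of each receptor gene, AZ6983 against control (horizontal axis, with the standard error of edgeR as bars), in all 12 mice and under 3 other settings. Adra1a and Adrb3 lie at 0.00045 and 0.03 with all mice, at −0.25 and −0.27 without A5 and at 0.18 and 0.20 with the brown fat score as covariate, and Adra2b moves from −0.66 to 0.26 without C3, C6 and A1.

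The signalling genes behind the receptors were counted from lists of the pathway, and 0 genes in any list passed 10% FDR in edgeR. Of 20 genes of the Gs and cAMP arm 0 had an unadjusted p under 0.05, 10 were higher and 10 lower in AZ6983 mice, and the median log2 fold change was −0.01. The most abundant was Gnas, the Gs α subunit gene, at 1362 CPM. Of 7 genes of the Gi arm 1 had an unadjusted p under 0.05, Gnai1, a Gi α subunit gene, at 126 ± 11.1 CPM in control and 112 ± 10.9 CPM in AZ6983 mice (log2 fold change −0.17, SE 0.0779, edgeR adjusted p = 0.483). The median over the Gi arm was 0.03, and Gnai2 was its most abundant gene at 151 CPM. Of 15 genes of the Gq and calcium arm 1 had an unadjusted p under 0.05, Itpr3, a calcium release channel gene, at 20.7 ± 3.03 and 24.4 ± 3.18 CPM (log2 fold change 0.24, SE 0.107, edgeR adjusted p = 0.487), with a median of 0.09 over the list and Itpr1 as its most abundant gene at 537 CPM. Without C3, C6 and A1 4 of these 15 had an unadjusted p under 0.05, beside 10.1% of all genes tested in that fit, and 0 passed 10% FDR. With the brown fat score as covariate 6 of the 20 genes of the Gs and cAMP arm had an unadjusted p under 0.05, beside 16.2% of all genes in that fit, again with 0 past 10% FDR.

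Desensitization is the shutting down of an occupied receptor by kinases, arrestins and RGS proteins. Of 12 such genes 11 were higher in AZ6983 mice and 1 was lower, with a median log2 fold change of 0.10, beside 8314 of 15857 genes higher over the whole test. With the brown fat score as covariate 9 were higher and 3 lower. Of the 12, 1 had an unadjusted p under 0.05. The gene under 0.05 was Adrbk1, the receptor kinase also called Grk2, at 53.8 ± 3.29 CPM in control and 61.9 ± 8.30 CPM in AZ6983 mice (log2 fold change 0.20, SE 0.0839, edgeR adjusted p = 0.466). The most abundant was Rgs5, an RGS protein gene of vascular smooth muscle and pericytes, at 2623 CPM and a log2 fold change of −0.06.

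All 13 genes tested for catecholamine synthesis, uptake and breakdown had lower fitted values in AZ6983 mice, beside 7543 of 15857 genes lower over the whole test. Their median log2 fold change was −0.84, and Dbh, Th and Slc6a2 among them were highest in C3, C6 and A1. Slc6a2, the noradrenaline transporter gene, measured 286 CPM in C3, 181 in C6 and 105 in A1, and 2.93 to 49.1 CPM in the other mice. Without C3, C6 and A1 the list had 6 genes higher and 7 lower and a median of −0.05. In that fit 3 of the 13 had an unadjusted p under 0.05, beside 10.1% of all genes, and 0 passed 10% FDR. The smallest p was that of Slc22a2 (log2 fold change −0.49, SE 0.193, edgeR adjusted p = 0.484). A single gene had an unadjusted p under 0.05 over all mice, Slc22a2, an organic cation transporter gene, at 4.57 ± 0.955 and 3.42 ± 0.590 CPM (log2 fold change −0.41, SE 0.162, edgeR adjusted p = 0.454). Pnmt, the enzyme that turns noradrenaline into adrenaline, had 2 to 7 counts and was not tested.

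Of the genes for the co-transmitters of sympathetic nerves, neuropeptide Y and ATP, and their receptors, 3 of 5 were tested. P2rx1, the ATP-gated channel of smooth muscle, measured 31.6 ± 3.37 CPM in control and 43.6 ± 10.4 CPM in AZ6983 mice (log2 fold change 0.46, SE 0.150, unadjusted p = 0.00871, edgeR adjusted p = 0.447). Without A5 it was 0.55 (SE 0.0967) and passed 10% FDR (edgeR adjusted p = 0.0723), as 1 of 27 genes of the whole table called without that mouse. With the brown fat score as covariate it was 0.27 (SE 0.0973, edgeR adjusted p = 0.239). Npy1r, the neuropeptide Y receptor of vessels, was the most abundant of the list at 79.9 CPM with a log2 fold change of −0.33 (SE 0.154, edgeR adjusted p = 0.497).

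Of the genes that β receptors switch on in fat, none passed the test. Of 8 tested, 6 were higher and 2 lower in AZ6983 mice with a median log2 fold change of 0.12, and 0 had an unadjusted p under 0.05. Without A5 4 were higher and 4 lower, with a median of −0.04, and 3 had an unadjusted p under 0.05, beside 12.8% of all genes in that fit. With the brown fat score as covariate 7 were higher and 1 lower, with a median of 0.30, and 3 had an unadjusted p under 0.05, beside 16.2% of all genes. None passed 10% FDR in either fit. Pnpla2 and Lipe, the lipases of stored fat, stood at 554 and 399.8 CPM with log2 fold changes of 0.12 (SE 0.187, edgeR adjusted p = 0.828) and 0.04 (SE 0.183, edgeR adjusted p = 0.946).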

How the data were processed

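Total RNA from the thoracic aorta was depleted of ribosomal RNA and sequenced as stranded libraries. The authors deposited raw counts per gene symbol, without normalization. The submitters' processing notes name CASAVA 1.8.2, STAR 2.5.2b, HTSeq 0.6.1p1 and mm10, and their settings, the strand setting among them, are not given in the sources used here. The 3 rows of the table that are no genes entered neither library sizes nor tests. Per mouse, 8.02% to 14.9% of reads met no gene, 18.1% to 23.2% had several alignments and 0.606% to 0.698% were ambiguous between genes.

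Groups came from the sample labels. Columns were matched by mouse number, 11 in full and that of A1 by 3 of 4 digits. For the counts, edgeR 4.0.16 under R 4.3.3 was used (quasi-likelihood test, TMM, filterByExpr, no covariate) with p-values adjusted by the Benjamini-Hochberg method over all 15857 genes kept, with a threshold of 10% FDR. Alternatives included DESeq2 1.42.0, the tool of the study, limma-voom (limma 3.58.1), other normalizations and filters, scores as covariates, and each mouse left out in turn. CPM values are TMM normalized, and log2 CPM used a prior count of 2. The precision of a value falls with its count, so counts are given for scarce genes. Correlations over mice were tested by permutation (5% after adjustment) and score differences by an exact permutation test over 924 assignments. The steps were tested on simulated data.

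The receptors and all lists were chosen with earlier results of these data known. Named by rule were the 8 receptors, pathway genes with an unadjusted p under 0.05 or the highest level in their list, the 3 genes most like each receptor (symbols starting with Gm or ending in Rik left out), defining markers, Apoe and Chrna7, and some genes that this rule names are not reported here. Th, Dbh, Slc6a2, Lipe and Pnmt were named after their values were seen. Adrbk1 and Adrbk2 stand for Grk2 and Grk3 in the table. Gene positions and exon lengths are from GENCODE M21 (GRCm38), matched by symbol for 8 of 8 genes, and promoters from RefSeq.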

Additional observations from a re-analysis of the deposited data

Results flagged for a closer look

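Among 48 groups of 6 mice examined for a lone mouse (8 receptor genes, their pathway genes with an unadjusted p under 0.05 and the cell type scores), 6 had a highest or lowest mouse set far apart from the other 5, where chance alone gives about 1 in 20, or 2.4. Values are log2 CPM. In control mice Adra1a was 4.85 in C6, against 5.34 to 5.46 in the others, and the brown fat score was 6.37 in the same mouse, against 6.87 to 7.12. In AZ6983 mice Adrb3 was 6.74 in A5, against 5.34 to 5.77, and Gnai1 was 6.52 in A5, against 6.81 to 6.97. Adra2a was 3.25 in A1, against 2.03 to 2.33 in the other AZ6983 mice. The thymocyte and T cell score was 6.75 in A4, against −0.397 to 2.26, and Rag1, a gene of developing lymphocytes, had 21669 counts in that mouse.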

How the results depend on the processing

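No receptor passed 10% FDR under any of the 28 alternatives. Adra1b and Adra2c were below 0 in every fit made (Adra1b, at a mean of 38.5 counts, was not tested in the fit on genes with a mean of at least 50). The change of Adra1a, close to 0, was negative with RLE (−0.0020), upper quartile (−0.0083), library totals only (−0.041), no filter (−0.016), DESeq2 on every gene (−0.0094) and on the filtered genes (−0.0016), limma-voom (−0.057) and with the white fat (−0.16), smooth muscle (−0.17) and sympathetic neuron (−0.010) scores as covariates, and that of Adrb3 with library totals (−0.014), limma-voom (−0.041), white fat (−0.17) and smooth muscle (−0.16). With the no-gene share of reads as covariate Adra1d was 0.017, Adra2a 0.20, Adra1b −0.57 and Adra2c −0.06, and of the 8 receptors Adra1b alone had an unadjusted p under 0.05. Without C3, C6 and A1, Adra1a was −0.047, Adra2b 0.26 and Adrb1 0.065. The cause of these turns was not tested. With 1 mouse left out Adra1a ran from −0.25 to 0.061, Adra1b from −0.50 to −0.26, Adra1d from −0.22 to −0.08, Adra2a from −0.38 to −0.01, Adra2b from −0.89 to 0.073, Adra2c from −0.47 to −0.07, Adrb1 from −0.23 to 0.16 and Adrb3 from −0.27 to 0.093. Genes of the whole table past 10% FDR were 0 in the main test, 2 with library totals, 92 and 84 with DESeq2 on every and on the filtered genes, 3, 8 and 1 with the white fat, brown fat and smooth muscle scores, 3 without C3, C6 and A1, and 0 to 27 with 1 mouse left out (27 without A5, 1 without C6 and 1 without A1). Score differences with 1 mouse left out ran from −0.472 to −0.186 for brown fat (−0.472 without A5, exact permutation p = 0.0216), −0.0974 to 0.0119 for smooth muscle (0.0119 without A5) and 0.0194 to 0.190 for white fat. The relation of Adra1a to the brown fat score missed the 5% threshold as rho (0.741, adjusted permutation p = 0.176) and without its 2 farthest mice (r = 0.833, adjusted permutation p = 0.153), and without A5 (0.872, adjusted permutation p = 0.0507). That of Adrb3 missed it as rho (0.790), without A5 (0.736) and without 2 mice (0.658), and that of Adra2c to the sympathetic neuron score as rho (0.783) and without 2 mice (0.817). No paired analysis was possible because the labels give no replicate numbers that the groups share. The sympathetic neuron covariate, the fits without C3, C6 and A1, the relations without A5 and the longest transcript as length were chosen after seeing the data. Adra2b had 13 to 232 counts per mouse and Adra1b 25 to 53, and the intervals printed cover the spread between mice as well as counting error.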
